A study of Mus musculus with 12 samples.

Results

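Mouse genes named Zfp, for zinc finger protein, and a number form one of the largest groups of gene symbols on these arrays. Genes of this form were taken from the annotated probesets, leaving out Zfp36, Zfp36l1 and Zfp36l2, and each was read from the probeset with the highest mean. Of 333 such genes, 253 had a mean at or above 3.83, the median of all probeset values, and are the Zfp genes described here. They stand among 10858 genes that reached the same level, of 18194 genes read in all. The means that chose them came from 11 arrays, and the group was set up around an early fall and a later return of its levels. Changes over time are therefore given as descriptions without a test. Levels are log2 values, so a difference of 1 is a 2-fold change, and a difference is always the first named array minus the second.

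The arrays hold RNA of peritoneal macrophages, which were recruited with thioglycollate in 3 kinds of mice. These were wild type, a knockout of the kinase IRAK2 (IRAK2-/-), and mice without IRAK1 as well as IRAK2, here named the double knockout. Cells of each genotype were left unstimulated (0 h) or exposed to MALP-2 at 100 ng/ml for 2, 4 or 8 h, with 1 array for each of the 12 combinations. MALP-2 is a lipopeptide that TLR2 and TLR6 sense together, and IRAK1 and IRAK2 are kinases that relay the signal of these receptors. The labels used here state no age and no number of mice behind an array. With 1 array a group, no value has a replicate of its own.

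Most Zfp genes encode proteins with a row of C2H2 zinc fingers, small folds held by a zinc ion that read bases of DNA. In many of them a KRAB domain recruits the co-repressor TRIM28, which brings in the histone methyltransferase SETDB1, HP1 proteins and DNA methylation. KRAB zinc finger genes multiplied in mammals by local duplication, lie in groups on many chromosomes, and are known for silencing retroelements. The name also covers proteins of other kinds, such as the ribosome collision sensor encoded by Zfp598. Whether a member encodes a KRAB domain was not analysed here. The rule by name also took in Zfp652os, an opposite-strand RNA gene, and Zfp862-ps, a pseudogene.

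The members were faint on the whole. On the wild-type 0 h array their median level was 5.48, while that of all 10858 genes was 6.47. Zfp433, Zfp334 and Zfp652os lay just inside the limit, and Zfp526 (3.82), Zfp3 (3.81) and Zfp954 (3.81) just outside it. Of the members, 138 had more than 1 probeset, and 24 were read from a probeset whose name marks it as shared with similar transcripts. Neighbouring members are often close copies of each other, so cross-hybridization between them was not tested and can mix their values. Among 82 members with more than 1 probeset above the limit, the chosen probeset moved at least 1.5-fold at 2 h in wild type in 26, and in 19 of these all probesets had the same sign.

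The double-knockout 0 h array stood apart. It correlated with the others at 0.764 to 0.804, while each of the other 11 reached at least 0.984 with some array and 0.954 with all of them. Its spike-in controls read 12.4 against 10.5 to 11.1, and 49 members were at least 2-fold above both other 0 h arrays on it (19.4%, background 8.68%) and 54 at least 2-fold below both (21.3%, background 40.3%). It is left out of the main comparisons below. The stimulated double-knockout arrays differed in the balance of 5' and 3' probesets, a measure of RNA length after amplification. For actin this was -4.25, -4.68 and -3.87 at 2, 4 and 8 h against -3.72 to -3.18 on the other 8, and for Gapdh -5.29, -5.90 and -4.36 against -3.84 to -3.42. All 8 macrophage markers had a mean over the 11 arrays above the limit, and the list mean was 9.18 to 9.80 on these arrays. Itgam alone dipped to 3.82 on the double-knockout 4 h array, just below the limit. Irak2 read 5.77 to 6.69 in wild type, 4.65 to 5.63 in the IRAK2 knockout and 4.61 to 5.19 on the stimulated double-knockout arrays. Irak1 read 8.11 to 8.31 on the last and 8.46 to 8.59 in wild type. No source used here places these probesets inside or outside the deleted exons, so they do not settle the labels.

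After 2 h of MALP-2 most Zfp genes read slightly lower than at 0 h. In wild type 177 of 253 (70.0%) were lower at 2 h, against 62.3% of all genes, and the median change was -0.20 against -0.15. At least 2-fold lower were 20 members (7.91%), with 7.95% in all genes, and at least 2-fold higher were 7 (2.77%), with 5.62% in all genes. In the IRAK2 knockout the median was -0.16 against -0.09, with 15 members 2-fold lower (background 5.65%) and 6 higher (background 4.9%). The share of members with a 2-fold lower level was thus close to that of all genes, and fewer members than genes were 2-fold higher in both genotypes. The member median depends on the scaling. With each array centred on its own median gene level, which moves the wild-type median of all genes by 0.19 to 0.04, it was -0.01.

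Later on, fewer members were 2-fold apart from 0 h. The wild-type member median was -0.15 at 4 h and -0.12 at 8 h, against -0.05 and -0.03 for all genes. At 4 h 8 members were 2-fold lower (background 7.18%) and 4 higher (background 5.59%). At 8 h 2 were 2-fold lower, Zfp395 and Zfp704 (0.791%, background 5.84%), and 4 were higher, Zfp811, Zfp719, Zfp658 and Zfp131 (1.58%, background 5.21%). In the IRAK2 knockout the medians were -0.04 at 4 h and -0.05 at 8 h. There 5 were lower and 5 higher at 4 h (backgrounds 5.3% and 4.52%), and at 8 h Zfp395 was lower (background 3.11%) and Zfp811 and Zfp800 higher (background 3.4%). Below their 0 h level at all 3 times were 130 members in wild type (51.4%, background 41.4%) and 102 in the IRAK2 knockout (40.3%, background 37.5%). The scarcity of 2-fold changes at 8 h was also there among the brighter members. Of 106 members at or above the 75th percentile of all values, 0.943% were lower and 1.89% higher at 8 h in wild type, against 6.75% and 6.57% of 6772 genes that bright.

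At a 1.5-fold limit the picture was similar. In wild type 59 members were lower and 15 higher at 2 h (backgrounds 20.5% and 10.8%), 30 and 14 at 4 h (16.8% and 11.5%) and 19 and 12 at 8 h (14.3% and 11.5%). In the IRAK2 knockout 49 were lower and 13 higher at 2 h (15.7% and 10.4%), 14 and 11 at 4 h (13.1% and 10.3%) and 8 and 10 at 8 h (9.21% and 8.17%). At 8 h against 2 h, 10 were lower and 32 higher in wild type (7.43% and 14.2%), 7 and 34 in the IRAK2 knockout (8.32% and 11.4%) and 13 and 37 in the double knockout (6.08% and 14.5%). In both genotypes at once 38 members were lower at 2 h (15%, background 13.9%) and 12 higher (4.74%, background 8.71%). Of those 38, 14 (36.8%) were still 1.5-fold lower at 8 h in wild type and 6 (15.8%) in IRAK2-/- cells, against 55.0% and 37.0% of the genes that were lower in both.

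**Figure D1:**
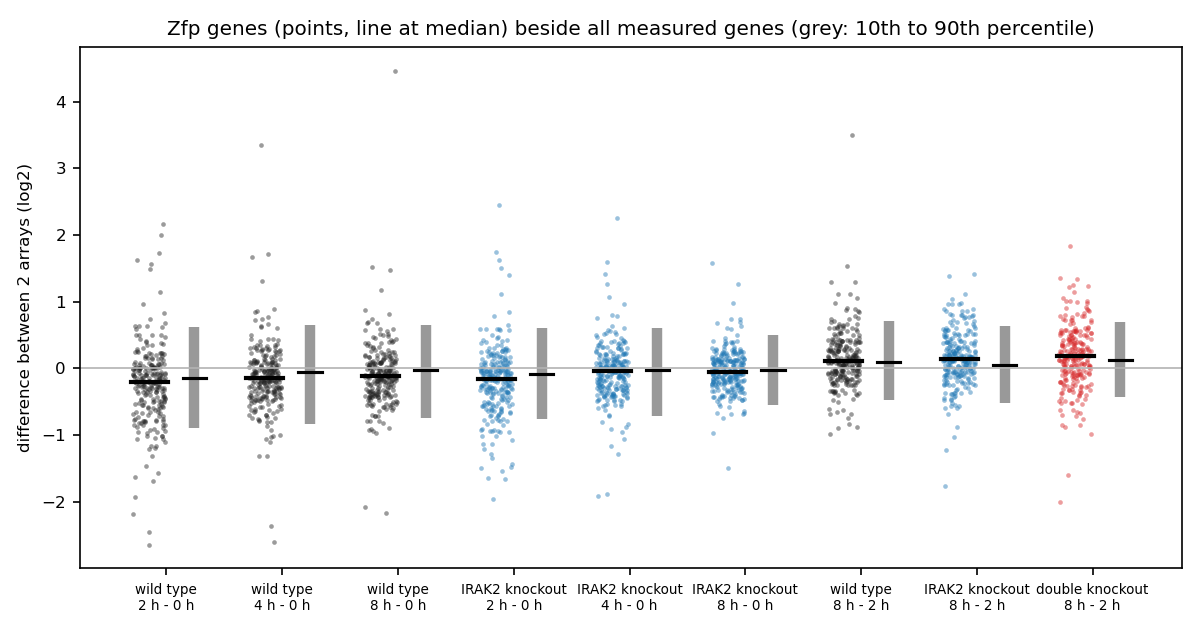
Difference between 2 arrays of one genotype (log2) for each of the 253 Zfp genes, shown as points with a line at the median, beside a grey bar from the 10th to the 90th percentile of all 10858 genes with their median. The members' medians lie at -0.20 for wild type and -0.16 for the IRAK2 knockout at 2 h against 0 h, near those of all genes, and the points above 3 are Zfp811.

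From 2 h to 8 h the members read higher again. The medians of 8 h minus 2 h were 0.11 in wild type, 0.13 in the IRAK2 knockout and 0.18 in the double knockout, against 0.10, 0.06 and 0.12 for all genes. These changes share the 2 h array with the changes from 0 h, so a low reading at 2 h enters both. In wild type 7 members were 2-fold higher at 8 h than at 2 h (background 4.34%) and 0 lower (background 2.85%). In the IRAK2 knockout 4 were higher, Zfp874b, Zfp398, Zfp710 and Zfp182 (background 3.48%), and 3 lower, Zfp658, Zfp263 and Zfp598 (background 3.18%). In the double knockout 11 were higher (background 3.53%), and Zfp658 and Zfp131 were lower (background 1.84%). When arrays were centred on the gene median, the wild-type value turned to -0.07, and that of all genes to -0.08 with it. The 2 h array was the lowest of the 3 stimulated ones for 131 members in wild type (background 49.2%), 151 in the IRAK2 knockout (59.7%, background 45.1%) and 133 in the double knockout (52.6%, background 42.2%).

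A short list of genes read far lower at 2 h. In both wild type and the IRAK2 knockout 11 members were at least 2-fold lower at 2 h (4.35%, background 5%), namely Zfp704, Zfp395, Zfp532, Zfp319, Zfp398, Zfp874b, Zfp763, Zfp810, Zfp945, Zfp251 and Zfp277. At 8 h all 11 were above their own 2 h value in both genotypes, as were 83.8% and 90.2% of the 543 genes chosen the same way. None of the 11 had reached its 0 h value, as 3.50% and 7.0% of those genes had. Of the 11, 2 were still 2-fold below 0 h at 8 h in wild type, against 255 of 543 such genes (47.0%). In the IRAK2 knockout this was 1 of 11, against 140 of 543 (25.8%).

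Zfp704 and Zfp395, which encode related DNA-binding proteins, were the pair still 2-fold lower at 8 h in wild type. Zfp704 read 7.40, 4.75, 4.79 and 5.31 at 0, 2, 4 and 8 h in wild type, 7.01, 5.06, 5.10 and 6.04 in IRAK2-/- cells, and 6.07, 6.86 and 7.41 at 2, 4 and 8 h in double-knockout cells. By 8 h it had regained 21.2% of its 2 h drop in wild type and 50.3% in IRAK2-/- cells. Its values in the double knockout lay above all those of the other stimulated arrays, and the last was near the wild-type 0 h level. A second, fainter Zfp704 probeset read only 0.64 lower at 2 h in wild type. Zfp395, whose human counterpart binds the huntingtin gene promoter, read 5.73, 3.27, 3.37 and 3.56 in wild type, the last 3 below the limit, so its difference of -2.46 at 2 h is a lower bound in size. It read 5.42, 3.93, 3.53 and 3.93 without IRAK2 and 3.83, 3.70 and 4.66 in the stimulated double knockout. As most of its stimulated values lay at or near the limit, no share of the drop regained is given.

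Other members of the list had come back further. Zfp874b regained 97.6% of its drop in wild type and 91.5% in IRAK2-/- cells. Its values were 7.11, 5.53, 6.40 and 7.07 in wild type, 7.22, 5.68, 6.75 and 7.09 in IRAK2-/- cells and 7.83, 8.03 and 7.79 in stimulated double-knockout cells. Its 2 h value was the lowest of 4 in wild type and in IRAK2-/- cells, and the double-knockout values lay above all others. Zfp532, whose human counterpart is a partner in NUT carcinoma fusions, read 6.24, 4.05, 4.92 and 5.34 in wild type, 5.78, 4.13, 4.49 and 5.10 in IRAK2-/- cells and 5.07, 5.57 and 6.31 in double-knockout cells. Zfp319 read 6.52, 4.59, 5.45 and 5.70 in wild type, 6.56, 5.13, 5.67 and 6.09 in IRAK2-/- cells, and 5.22, 7.22 and 7.06 in double-knockout cells. Its double-knockout value at 2 h lay beside those of the other genotypes, and its later ones lay well above them. Zfp398, whose human counterpart binds the estrogen receptor, read 7.03, 5.35, 5.71 and 6.24 in wild type, 6.74, 5.08, 5.57 and 6.46 in IRAK2-/- cells and 6.17, 6.96 and 7.53 in double-knockout cells.

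Others of the list had smaller changes at 2 h when averaged over wild type and the IRAK2 knockout. Zfp763 read 7.70, 6.23, 6.77 and 6.91 in wild type and 7.73, 6.38, 6.82 and 7.24 in the IRAK2 knockout, against 7.11, 7.33 and 7.18 in the double knockout. Zfp810 read 6.69, 5.38, 5.89 and 5.78, then 6.65, 5.17, 5.59 and 5.98, and 5.95, 7.0 and 6.73 for the same arrays. Zfp945 read 5.64, 4.42, 4.6 and 4.84, then 5.72, 4.43, 5.0 and 5.23, and 4.66, 4.31 and 4.78, so that here the double knockout was as low as the others. Zfp667, a KRAB zinc finger gene also called Mipu1, is not one of the 11 genes. Its changes at 2 h were -1.63 in wild type and -0.95 without IRAK2. It was below the limit at 2 h in both genotypes, so these are lower bounds in size. Its values were 5.08, 3.45, 4.08 and 4.11 in wild type, and 4.77, 3.81, 3.81 and 4.03 without IRAK2. Of the 11 genes lower in both, 10 had a double-knockout 2 h value above both other 2 h values, as had 463 of the 543 genes of all kinds.

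**Figure D2:**
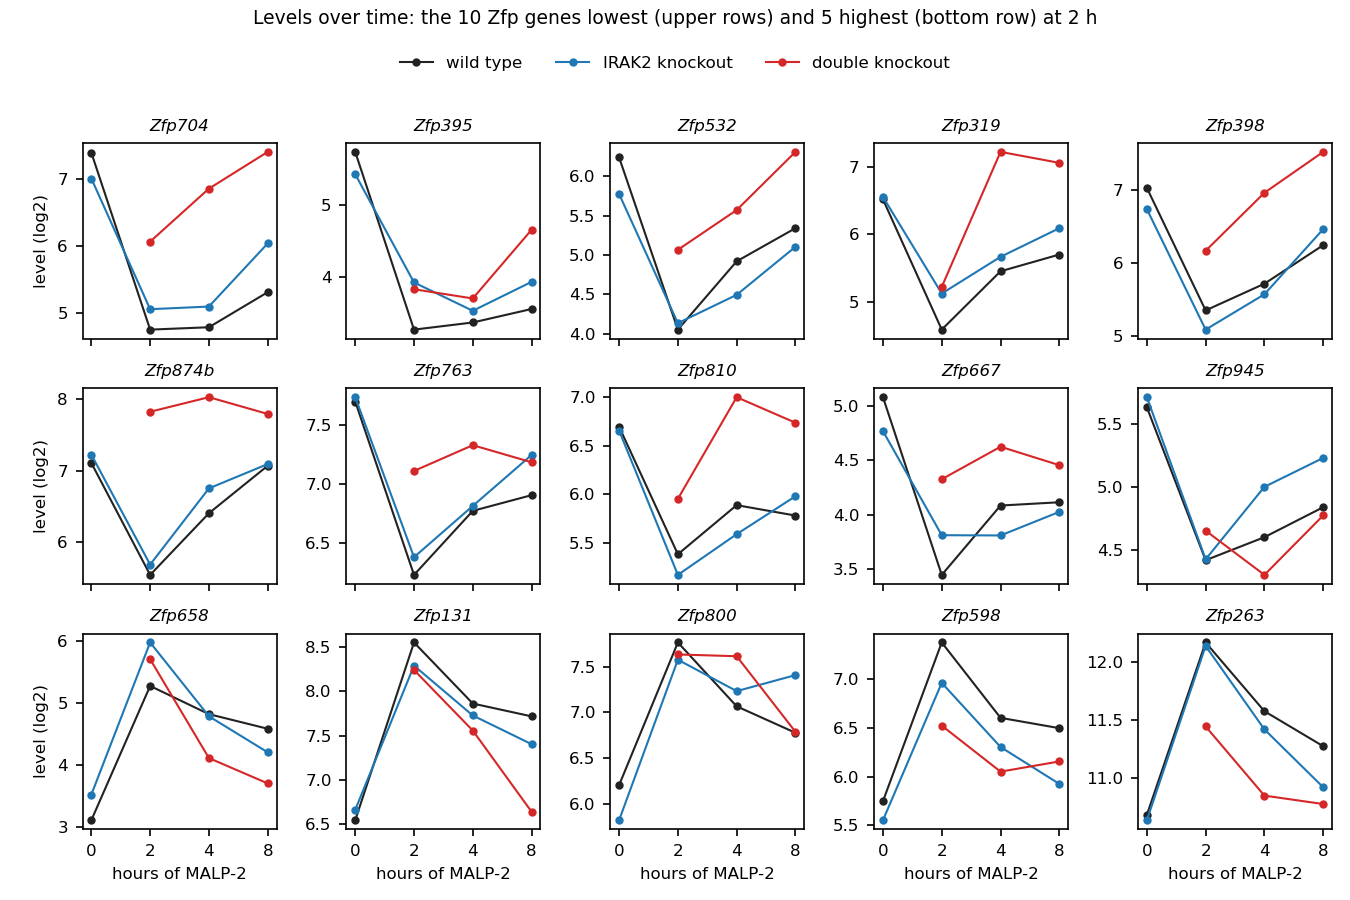
Level (log2) against hours of MALP-2 for the 10 Zfp genes with the lowest and the 5 with the highest mean change at 2 h in wild type and the IRAK2 knockout, 1 array per point, with the double-knockout 0 h array left out and an axis range of its own in each panel. Zfp704 stays between 4.75 and 5.31 in stimulated wild type while the double knockout runs from 6.07 to 7.41, and Zfp131 and Zfp263 are highest at 2 h in all 3 genotypes.

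Promoter sequences are shown for 4 genes of the low list that RefSeq places, to let their base composition be compared. They span 250 bases before to 50 after the annotated start on GRCm38.p6, 5′ to 3′ on the strand of the gene. They lie at chr8:95331762-95332061 (minus strand) for Zfp319, chr6:47835411-47835710 (plus strand) for Zfp398, chr13:67484204-67484503 (minus strand) for Zfp874b and chr17:33033332-33033631 (minus strand) for Zfp763. Capitals mark GGGCGG, the core that SP1 binds, on either strand. The ETS string CCGGAAG and the NF-kB consensus were searched as well and have no match in these windows.
Zfp319: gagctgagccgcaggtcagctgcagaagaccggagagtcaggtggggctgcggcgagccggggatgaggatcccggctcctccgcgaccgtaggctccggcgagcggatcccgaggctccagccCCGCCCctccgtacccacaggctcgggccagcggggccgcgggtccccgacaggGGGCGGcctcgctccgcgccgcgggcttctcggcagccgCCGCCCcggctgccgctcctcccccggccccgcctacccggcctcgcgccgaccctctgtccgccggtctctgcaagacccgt
Zfp398: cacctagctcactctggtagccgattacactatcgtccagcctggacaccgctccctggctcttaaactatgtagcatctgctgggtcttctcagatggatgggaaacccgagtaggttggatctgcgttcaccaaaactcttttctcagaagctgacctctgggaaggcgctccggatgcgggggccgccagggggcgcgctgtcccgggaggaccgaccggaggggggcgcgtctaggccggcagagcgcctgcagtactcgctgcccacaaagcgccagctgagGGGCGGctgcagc
Zfp874b: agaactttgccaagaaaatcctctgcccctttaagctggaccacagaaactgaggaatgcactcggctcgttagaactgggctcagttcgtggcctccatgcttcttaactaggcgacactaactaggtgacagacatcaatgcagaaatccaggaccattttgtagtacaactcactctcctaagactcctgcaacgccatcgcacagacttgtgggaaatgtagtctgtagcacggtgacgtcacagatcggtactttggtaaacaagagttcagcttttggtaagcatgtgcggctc
Zfp763: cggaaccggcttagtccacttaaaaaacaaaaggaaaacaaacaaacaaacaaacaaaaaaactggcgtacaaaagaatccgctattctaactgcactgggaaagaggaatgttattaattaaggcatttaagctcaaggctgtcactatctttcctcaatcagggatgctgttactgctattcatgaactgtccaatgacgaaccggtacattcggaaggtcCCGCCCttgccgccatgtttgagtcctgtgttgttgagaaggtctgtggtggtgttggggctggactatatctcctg
Zfp319 has 40 CpG pairs and 3 such cores, Zfp398 has 21 and 1, Zfp763 has 9 and 1, and Zfp874b has 10 pairs and no core. These 4 windows therefore differ widely in CpG content.

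Windows were found for 207 of the 253 members, 255 in all, with 46 members unmatched, among them Zfp704 and Zfp395. On both strands, GGGCGG was in 47.8% of the members' windows, in 35.7% of all 32851 windows and in 61.9% of those of the 10858 genes. The median number of CpG pairs was 16, 7 and 20 in the same order. CCGGAAG was in 20%, 8.86% and 17.5%, CCAAT in 46.3%, 37.4% and 36.8%, and TATAAA in 5.88%, 13.6% and 7.25%. The NRF1 consensus was in 3.92%, 0.971% and 2.15%, the cyclic AMP response string TGACGTCA in 3.14%, 1.79% and 3.02%, and the NF-kB consensus in 3.14%, 4.51% and 5.28%. None of these strings contains another. The members' windows thus held CCAAT somewhat more often, and SP1 cores less often, than those of expressed genes in general; a match is a string of letters and shows no binding.

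A smaller set of Zfp genes was higher at 2 h. In both genotypes 6 members were at least 2-fold higher (2.37%, background 4.45%): Zfp658, Zfp131, Zfp800, Zfp598, Zfp263 and Zfp719. Zfp131, a BTB-domain transcription factor, read 6.55, 8.55, 7.86 and 7.72 in wild type, 6.66, 8.29, 7.73 and 7.40 in IRAK2-/- cells, and 8.24, 7.56 and 6.64 in stimulated double-knockout cells. All 3 genotypes were near each other at 2 h and the double knockout was lowest at 8 h. Zfp263, a SCAN and KRAB domain factor, had the highest mean of all members and read 10.68, 12.17, 11.57 and 11.27, then 10.63, 12.14, 11.42 and 10.92, and 11.44, 10.85 and 10.77. Its probeset is one shared with similar transcripts, and its second probeset read 2.54 higher at 2 h in wild type. Zfp598, the ubiquitin ligase that marks collided ribosomes, read 5.75, 7.37, 6.60 and 6.49, then 5.55, 6.96, 6.30 and 5.93, and 6.52, 6.05 and 6.15. It was thus highest in wild type at each stimulated time.

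Zfp658 was below the limit at 0 h (3.11 in wild type and 3.52 in IRAK2-/- cells), so its differences are lower bounds. It read 5.27, 4.82 and 4.58 at 2, 4 and 8 h in wild type, 5.97, 4.78 and 4.2 in IRAK2-/- cells and 5.70, 4.11 and 3.70 in double-knockout cells. Its level at 8 h was below that at 2 h in every genotype, by 0.69 in wild type, 1.77 without IRAK2 and at least 2.0 in the double knockout, whose 8 h value is below the limit. Zfp800 read 6.21, 7.76, 7.07 and 6.78 in wild type and 5.82, 7.58, 7.23 and 7.41 in the IRAK2 knockout, where it stayed high. In the double knockout it read 7.63, 7.61 and 6.79. Over the stimulated times this was 0.14 above wild type, while the fainter Zfp800 probesets ran from -1.72 to 0.40. At 2 h in wild type the fainter ones ran from -0.68 to 1.38. Zfp719 read 4.77, 6.5, 6.44 and 6.29 in wild type, 4.94, 6.06, 6.53 and 5.68 in IRAK2-/- cells, and 5.55, 5.43 and 5.10 in double-knockout cells. It kept its level over the wild-type times and was lower in the double knockout at each of them.

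Zfp811 was the member furthest above its 0 h level in wild type, at 4 and 8 h. It read 3.84 at 0 h in wild type, then 4.81, 7.20 and 8.31. In the IRAK2 knockout it read 3.89, then 4.48, 6.15 and 5.17, and on the stimulated double-knockout arrays 4.11, 3.89 and 3.72. Its highest level thus came at 8 h in wild type and at 4 h in the IRAK2 knockout, and in the double knockout it stayed near the limit of 3.83. Over the stimulated times it was lower in the double knockout than in wild type by -2.87 (SE 0.60, limma adjusted p 0.00569), a lower bound in size since the last value is below the limit. Against the IRAK2 knockout the difference was -1.36 (SE 0.60, limma adjusted p 0.105). In the fit of slopes on log2 time the double knockout differed by -1.95 per doubling of time (limma adjusted p 0.0889), and the IRAK2 knockout by -1.41 (limma adjusted p 0.957). Both slopes passed the threshold when only the 2 genotypes in question were fitted.

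The Zfp811 promoter is printed because no other member read as far above 0 h, and was chosen after its values were seen. It lies at chr17:32809882-32810181 on the minus strand of GRCm38.p6, has 5 CpG pairs, and holds no match to the SP1, ETS or NF-kB strings, so it carries no capitals.
Zfp811: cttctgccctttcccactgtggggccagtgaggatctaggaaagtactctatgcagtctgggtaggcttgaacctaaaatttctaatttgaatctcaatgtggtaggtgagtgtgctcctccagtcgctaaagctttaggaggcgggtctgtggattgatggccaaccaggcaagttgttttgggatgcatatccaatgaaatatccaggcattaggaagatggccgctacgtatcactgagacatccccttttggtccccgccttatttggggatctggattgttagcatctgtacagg
Zfp763, of the list that was low at 2 h, lies in the same genomic group of 8 Zfp genes, and its window holds 9 CpG pairs.

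Between the IRAK2 knockout and wild type 1 Zfp gene was called different over the stimulated times. The 9 stimulated arrays were fitted in limma with additive terms for genotype and time, and p-values were adjusted over all 10858 genes by the Benjamini-Hochberg method. Error in this model is how unevenly a difference runs across the 3 times, so its p-values say nothing of the spread between mice. Of 253 members 0 were called lower (background 0.35%) and 1 higher (0.395%, background 0.414%), with 32 at an unadjusted p under 0.05, against 13.6% of all genes. The median difference was 0.02, the same as for all genes. Across the 253 members the 2 h changes of wild type and the IRAK2 knockout correlated at 0.886 (Pearson) and 0.804 (Spearman), and 84.2% had the same sign. For all genes these were 0.943, 0.872 and 84.5%. The genes of one array share its scaling and are not independent, so no p is given.

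The called member was Zfp994. It read 4.03, 3.89, 4.05 and 4.10 in wild type and 5.86, 4.94, 5.29 and 5.45 in IRAK2-/- cells, and 4.50, 4.39 and 4.17 in stimulated double-knockout cells. All 4 IRAK2-knockout arrays were above all wild-type ones, the unstimulated ones included. Over the stimulated times the difference was 1.22 (SE 0.15, limma adjusted p 0.0142). The call was lost without the arrays of 2 h, 4 h or 8 h (limma adjusted p 0.0771, 0.309 and 0.0669) while the difference stayed between 1.15 and 1.30. Next came Zfp429, at 5.08, 5.52 and 5.09 in the stimulated IRAK2 knockout and 4.42, 4.24 and 4.49 in wild type, with a difference of 0.85 (limma adjusted p 0.0599). At single times 1 member was 2-fold apart at 0 h, 1 at 2 h, 3 at 4 h and 3 at 8 h. Zfp994 stood apart at all 4 times (backgrounds for higher 0.147%, 0.258%, 0.23% and 0.718%). Zfp429 was higher at 4 h and Zfp944 at 8 h. Zfp811 was lower at 4 and 8 h, and no member was lower at the other times (backgrounds for lower 0.322%, 0.286%, 0.553% and 1.24%).

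**Figure D3:**
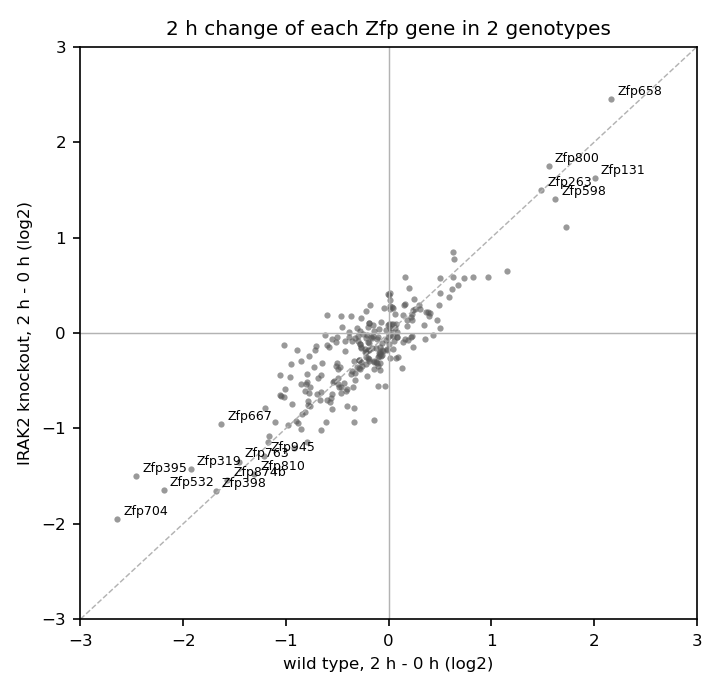
Change at 2 h against 0 h (log2) in wild type on the horizontal and in the IRAK2 knockout on the vertical axis, 1 point per Zfp gene, with the line of equal change dashed and the 15 genes of the time-course panels labelled. Points follow the dashed line, with Zfp704 at -2.64 and -1.95 and Zfp658 at 2.16 and 2.45.

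In the double knockout Zfp genes were more often higher than lower. Against wild type 75 members were called higher (29.6%, background 23.8%) and 19 lower (7.51%, background 17.4%) by limma at an adjusted p under 0.05. The median difference was 0.19, against 0.07 for all genes, and 178 of 253 members were above wild type. By time the median was 0.09 at 2 h, 0.24 at 4 h and 0.22 at 8 h, against 0.06, 0.05 and 0.09 for all genes. The difference at 2 h was thus near that of all genes. At least 2-fold higher were 11, 26 and 8 members at these times (backgrounds 4.96%, 7.16% and 6.19%), and 2-fold lower 2, 6 and 6 (backgrounds 4.84%, 6.68% and 5.19%). All 3 stimulated double-knockout values lay above all 6 of the other genotypes in 45 members (17.8%, background 16.3%) and below all 6 in 10 (3.95%, background 12.5%). Among the 82 members with more than 1 probeset above the limit, the chosen probeset differed from wild type at least 1.5-fold in 24. In 15 of these all probesets had the same sign. With the mean of all probesets of a gene 60 members were called higher and 20 lower, against 1751 and 2029 of 10088 genes. Without the 4 h arrays 32 members were called higher and 10 lower. With arrays centred on the gene median 59 were higher and 22 lower, and over all genes that scaling turned 2584 higher and 1887 lower calls into 2047 and 2385.

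Other measures moved with the double knockout as well. The 5' to 3' balance of the control transcripts given above was lower on its 3 arrays. The macrophage list mean was 9.54, 9.18 and 9.21 at 2, 4 and 8 h, against 9.58 to 9.80 on the other 8 arrays. Its markers did not move together. Cd14, at 7.48 on the wild-type 0 h array, read 10.15, 9.24 and 8.10 against 11.30, 11.06 and 10.70 in stimulated wild type. Adgre1, Itgam, Lyz2 and Fcgr1 were also below wild type at each of these times, and Cd68 at 2 and 4 h. Csf1r (13.13, 13.17 and 13.31) and Mertk (7.14, 6.75 and 7.44) were above wild type at each of them. Of the eosinophil and mast cell list 2 of 5 markers had a mean over the 11 arrays above the limit, Siglecf and Cpa3. The mean of this list was 4.62, 4.89 and 4.56 against 3.99 to 4.41. Siglecf read 7.81, 7.67 and 7.36 against 5.76 to 7.30, and Cpa3 4.90, 5.85 and 5.09 against 3.92 to 4.91. Kit read 4.03, 4.34 and 3.68 against 3.04 to 3.43, and Prg2 and Epx were below the limit on all 11 arrays. Of the neutrophil list 3 of 8 had such a mean above the limit. The mean of this list was 4.49, 4.53 and 4.50 against 4.8 to 5.28, with Ngp, Elane and Mpo below the limit throughout. Of the dendritic cell list 1 of 4 had such a mean above the limit, Zbtb46, at 7.14, 6.61 and 6.15 against 5.19 to 6.77 on the other 8 arrays. The mean of that list was 4.38, 4.16 and 3.96 against 3.77 to 4.15, with Flt3, Cd209a and Xcr1 below the limit throughout. The B cell list mean was 4.39 to 4.91 in wild type, 4.03 to 4.30 in IRAK2-/- cells and 4.29 to 4.39 in stimulated double-knockout cells. Ighm of that list read 7.92, 6.37, 6.87 and 7.55 in wild type and 5.87, 5.36, 5.95 and 5.42 in IRAK2-/- cells. In stimulated double-knockout cells Ighm read 6.67, 7.51 and 7.56. The mesothelial and stromal list mean was 5.99 to 6.35 on the 11 arrays. The part of all these measures in the differences between genotypes was not tested. In bulk RNA, fewer cells of a type and less RNA per cell cannot be told apart.

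Genes of the list that was low at 2 h were among those called higher in the double knockout. Zfp704 was higher than in wild type by 1.83 (SE 0.17, limma adjusted p 1.61e-04), Zfp874b by 1.55 (SE 0.26, limma adjusted p 0.00207) and Zfp319 by 1.25 (SE 0.24, limma adjusted p 0.00331). The fainter Zfp704 probeset differed by only 0.15, and the fainter ones of Zfp319 by 0.38 and -0.15. Zfp398 was higher by 1.12 (SE 0.14, limma adjusted p 4.48e-04), but with the mean of all its probesets by only 0.18 (limma adjusted p 0.136). These genes were chosen for the low wild-type and IRAK2-knockout arrays at 2 h, which also enter this comparison, so their place in it is no separate evidence. Zfp945, of the same list, read 0.04 lower (limma adjusted p 0.856).

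Other called genes were not on that list. Zfp367, at 8.09 on the wild-type 0 h array, read 7.27, 7.45 and 7.66 at 2, 4 and 8 h in wild type, 7.03, 7.29 and 7.43 in IRAK2-/- cells and 8.79, 9.18 and 8.69 in double-knockout cells, a difference from wild type of 1.43 (SE 0.15, limma adjusted p 2.40e-04). Zfp180 read 5.69, 5.71 and 5.45, then 5.62, 5.79 and 5.67, and 6.62, 7.15 and 6.66, a difference of 1.20 (SE 0.13, limma adjusted p 2.69e-04). Zfp697 read 4.83, 4.87 and 5.06, then 4.68, 4.50 and 4.70, and 6.02, 6.48 and 5.90, a difference from wild type of 1.21, while its fainter probeset differed by 0.21. In these 3 genes the double-knockout values lay above all those of the other genotypes. Zfp469, whose human counterpart is mutated in brittle cornea syndrome, was higher by 1.51 (SE 0.18, limma adjusted p 4.29e-04), Zfp52 by 1.22 (SE 0.23, limma adjusted p 0.00306) and Zfp974 by 1.10 (SE 0.14, limma adjusted p 5.46e-04). Zfp52 read 5.57, 5.46 and 5.33 in wild type, 6.05, 6.22 and 6.18 in IRAK2-/- cells and 6.70, 7.31 and 6.01 in double-knockout cells. At 8 h its double-knockout value was thus below that of IRAK2-/- cells. In all, 12 members were called higher by at least 2-fold (background 4.94%) and 3 lower (background 4.67%).

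**Figure D4:**
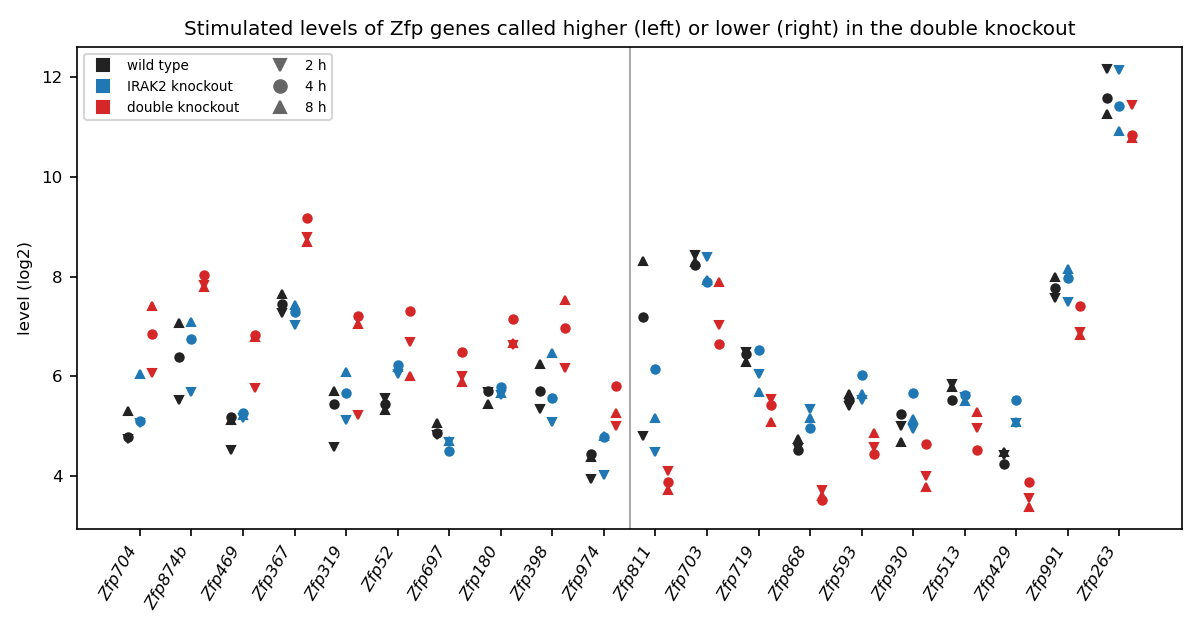
Levels (log2) on the 9 stimulated arrays for the 10 Zfp genes with the largest called difference in each direction between the double knockout and wild type, higher on the left and lower on the right, with colour for genotype and marker shape for the time. Zfp367 lies at 8.69 to 9.18 in the double knockout and 7.03 to 7.66 elsewhere, and Zfp868 at 3.53 to 3.72 against 4.53 to 5.35.

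Zfp811, Zfp703 and Zfp719 were the members called 2-fold lower than wild type. Zfp703, a co-repressor of the NET family, read 8.44, 8.24 and 8.29 in wild type, 8.40, 7.89 and 7.94 in IRAK2-/- cells and 7.03, 6.66 and 7.90 in double-knockout cells. Its difference was -1.13 (SE 0.25, limma adjusted p 0.00674), and without the 4 h arrays -0.90 (limma adjusted p 0.0791). With the mean of its 3 probesets it was -0.43 (limma adjusted p 0.0438). Zfp719 differed by -1.05 (SE 0.15, limma adjusted p 9.82e-04). Zfp868 read 4.57, 4.53 and 4.74, then 5.35, 4.96 and 5.16, and 3.72, 3.53 and 3.60. The last 3 are below the limit, so its difference is a lower bound in size, at -1.0 (SE 0.12, limma adjusted p 3.84e-04). Zfp593, whose human counterpart takes part in ribosome assembly, differed by -0.90 (SE 0.15, limma adjusted p 0.00207), Zfp930, whose double-knockout 8 h value is below the limit, by -0.84 (SE 0.14, limma adjusted p 0.00186) and Zfp513 by -0.80 (SE 0.16, limma adjusted p 0.00476). Zfp263 differed by -0.65 (SE 0.13, limma adjusted p 0.00422). Zfp991 differed by -0.73 (SE 0.17, limma adjusted p 0.00913), but its second probeset read 0.92 higher, so its direction is not settled.

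Against the IRAK2 knockout, 62 members were called higher (24.5%, background 22.1%) and 20 lower (7.91%, background 16.8%) in the double knockout, and without the 4 h arrays 18 and 8. This comparison shares the double-knockout arrays with the one above. Zfp367 was higher by 1.64 (SE 0.15, limma adjusted p 1.49e-04), Zfp697 by 1.5 (SE 0.16, limma adjusted p 3.42e-04), Zfp704 by 1.38 (SE 0.17, limma adjusted p 6.23e-04) and Zfp866 by 1.16 (SE 0.11, limma adjusted p 1.56e-04). Zfp429 was lower by -1.62 (SE 0.16, limma adjusted p 2.06e-04), Zfp868 by at least -1.54 in size (SE 0.12, limma adjusted p 6.59e-05) and Zfp40 by -1.35 (SE 0.21, limma adjusted p 0.00152). For Zfp429 the values of the 3 genotypes did not overlap, at 5.08, 5.52 and 5.09 in the IRAK2 knockout, 4.42, 4.24 and 4.49 in wild type and 3.56, 3.88 and 3.38 in the double knockout, where the first and last are below the limit and the difference is a lower bound in size. Zfp40 read 5.52, 6.13 and 6.16, then 4.79, 5.34 and 5.32, and 4.85, 4.58 and 4.33 in the same order. In the slope fits limma called 0 members against wild type at an adjusted p under 0.05, for the IRAK2 knockout (backgrounds 0.00921% lower and 0% higher) or the double knockout (backgrounds 0.111% and 0.0276%). At an unadjusted p under 0.05 there were 9 for the former, against 4.94% of all genes, and 23 for the latter, against 15% of all genes.

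Members with a described function were listed apart, with the list chosen when earlier results were known. Of 32 such genes listed, 28 reached the limit. At 2 h in wild type 4 of these, Zfp131, Zfp800, Zfp263 and Zfp568, were 2-fold higher (background 5.62%) and 0 lower (background 7.95%). Their list had a median of 0.07, against -0.20 for all members and -0.15 for all genes. In the double knockout 7 were called higher than wild type (background 23.8%) and 4 lower (background 17.4%), near the shares of all genes. Zfp148, which binds GC-rich promoters, was higher by 1.01 (SE 0.16, limma adjusted p 0.00146), but its 6 probesets read from -0.27 to 1.01. Zfp346, a binder of double-stranded RNA, read 5.26, 4.68 and 4.57 in wild type, 5.20, 4.74 and 4.83 in IRAK2-/- cells and 5.88, 5.68 and 5.53 in double-knockout cells, a difference of 0.86 (SE 0.12, limma adjusted p 9.20e-04). Zfp91, a ubiquitin ligase that acts on the kinase NIK of the alternative NF-kB pathway, read 9.83, 10.31 and 10.23, then 9.78, 10.03 and 10.23, and 10.38, 10.63 and 10.76, a difference of 0.46 (SE 0.11, limma adjusted p 0.00991). The fainter Zfp91 probesets differed by -0.29 and 0.18, so its direction is not settled. Zfp746, known as PARIS, was higher by 0.46 (limma adjusted p 0.00974), Zfp318 by 0.49 (limma adjusted p 0.0283), Zfp827 by 0.44 (limma adjusted p 0.046) and Zfp110 by 0.39 (limma adjusted p 0.0322).

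Lower in the double knockout were Zfp131 by -0.56 (SE 0.17, limma adjusted p 0.0252), Zfp263, Zfp703 and Zfp568, a repressor of a placental Igf2 transcript, by -0.41 (SE 0.12, limma adjusted p 0.0265). Zfp568 read 5.75, 6.90, 6.36 and 6.56 in wild type, 5.97, 6.62, 5.85 and 6.05 in IRAK2-/- cells, and 6.35, 5.99 and 6.25 in double-knockout cells, which lay within the range of the other genotypes. Zfp809, which recruits TRIM28 to retroviral primer binding sites, read 6.26, 5.60, 6.18 and 6.45, then 5.89, 5.46, 5.70 and 6.03, and 5.89, 6.25 and 6.79. Its difference between the double knockout and wild type was 0.24 (limma adjusted p 0.141). For Zfp281, a pluripotency factor, the same difference was -0.02 (limma adjusted p 0.906). By signal the brightest members after Zfp263 were Zfp91, the RNA-binding protein gene Zfp106 (9.26 to 9.72 in wild type), the ribosome assembly gene Zfp622 (9.23 to 9.71) and Zfp384 (9.11 to 9.30). A probeset's brightness also depends on its probes, so these are not an order of abundance.

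Many Zfp genes lie beside other Zfp genes, and the double-knockout difference was described by this position. Members were placed by the order of genes in the RefSeq annotation, and Zfp genes at most 3 places apart were joined. This gave 101 members alone, 57 in groups of 2 or 3 Zfp genes and 93 in groups of 4 or more, with 2 not placed. The median 2 h change in wild type was -0.12, -0.21 and -0.29 in this order, and the median difference of the double knockout from wild type 0.13, 0.14 and 0.31. Of these, 30, 8 and 36 were called higher in the double knockout (background 23.8%) and 9, 5 and 5 lower (background 17.4%). Neighbours can be near copies that share probes, so their values are not independent, and these counts are a description.

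The highest group median belonged to the genes that run from Zfp677 to Zfp946, with 18 Zfp genes, 16 of them members. It is described because of that median. All 16 read above wild type over the stimulated double-knockout arrays, with a median of 0.64. In this group limma called 10 higher and 0 lower (backgrounds 23.8% and 17.4%). The group from Zfp180 to Zfp94 was close, with a median of 0.63. All 4 of its members were above wild type, and 3 were called higher. The members from Zfp677 to Zfp946 are given next. They include Zfp52, Zfp944 (0.92, SE 0.17, limma adjusted p 0.00319), Zfp677 (0.82, SE 0.14, limma adjusted p 0.00215) and Zfp995 (0.78, SE 0.15, limma adjusted p 0.0038). Zfp995 read 8.37, 7.90, 8.15 and 7.98 in wild type, 8.39, 7.82, 8.39 and 8.23 in IRAK2-/- cells, and 8.72, 9.19 and 8.46 in double-knockout cells. Zfp994, the member higher in the IRAK2 knockout, belongs to the same group, whose median difference between the IRAK2 knockout and wild type was 0.34. At 2 h 13 of the 16 were below 0 h in wild type and 15 in IRAK2-/- cells, against 62.3% and 59.5% of all genes.

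**Figure D5:**
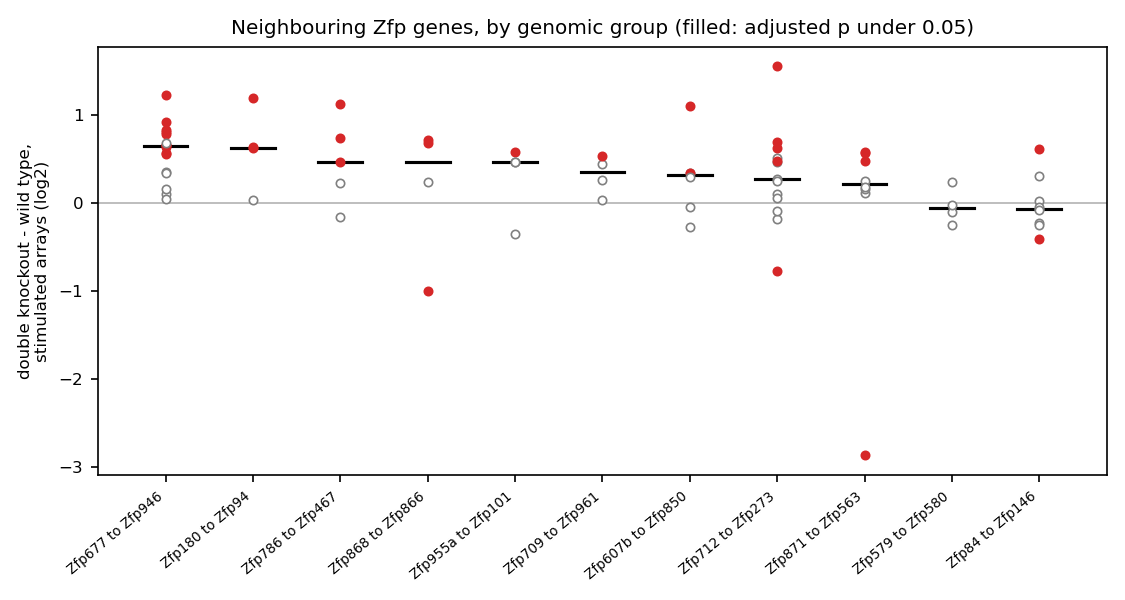
Difference between the double knockout and wild type over the stimulated arrays (log2) for the members of the 11 genomic groups that hold at least 4 of them, named by their first and last Zfp gene, with filled points for an adjusted p under 0.05 and a line at the group median. The group from Zfp677 to Zfp946 has the highest median (0.64) with all 16 points above 0, and the point at -2.87 is Zfp811.

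The machinery that KRAB zinc finger proteins use was described beside them. Of 27 listed genes 25 reached the limit. None was called between the IRAK2 knockout and wild type, and in the double knockout limma called 9 higher (background 23.8%) and 4 lower (background 17.4%). Of the DNA methyltransferase genes, Dnmt3a was higher by 1.36 (SE 0.12, limma adjusted p 9.73e-05) and Dnmt1 by 1.27 (SE 0.15, limma adjusted p 4.51e-04). Dnmt1 read 10.90, 9.11, 10.08 and 10.41 in wild type, 10.93, 9.49, 9.96 and 10.55 in IRAK2-/- cells and 10.84, 11.03 and 11.52 in double-knockout cells. The 2 h value was the lowest of the stimulated ones in every genotype, and all 3 double-knockout values lay above the other stimulated ones. Atf7ip, a partner of SETDB1, read 7.10, 5.53, 6.29 and 6.18, then 7.02, 5.65, 6.03 and 6.51, and 6.20, 7.24 and 7.43, and was higher by 0.96 (SE 0.16, limma adjusted p 0.00168). Trim28 itself read 10.03, 9.61, 10.08 and 10.28, then 10.06, 9.76, 9.99 and 10.22, and 10.03, 10.29 and 10.60, a difference of 0.32 (SE 0.11, limma adjusted p 0.0408). Setdb1 read 5.93, 5.23, 5.38 and 5.87 in wild type, and its difference was 0.05 (limma adjusted p 0.802). Hdac1, Pphln1, Morc2a and Cbx3 were called lower, Hdac1 by -0.68 (SE 0.12, limma adjusted p 0.00211).

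Other zinc finger families, chosen by symbol with the same rule, gave a scale for the Zfp values. Their median changes at 2 h in wild type were -0.48 for 12 Zkscan and Zscan genes, which encode SCAN domain factors, -0.16 for 11 Zmat, Zmiz and Zmym genes, -0.13 for 37 Zbtb genes, 0.12 for 14 Zc3h genes and 0.28 for 10 Klf genes. The Zfp median of -0.20 lay within this range. At 8 h against 0 h the same medians were -0.28, -0.17, -0.09, 0.30 and 0.10. In the double knockout against wild type, limma called 5 Zkscan and Zscan genes higher and 0 lower, 6 and 1 of Zmat, Zmiz and Zmym, 11 and 2 of Zbtb, 2 and 4 of Zc3h, and 3 and 3 of Klf. Over all genes 23.8% were called higher and 17.4% lower. The lists are short, and no difference between families was tested.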

How the data were processed

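RNA of 12 macrophage samples, extracted with Trizol and labelled with a NuGEN Ovation kit per the labels, was hybridised to 1 Affymetrix mouse array each. The authors deposited log2 values made by RMA per the submitters' processing notes, which corrects background, sets all arrays to a common distribution and summarises the probes of a probeset. A common distribution removes shifts shared by most genes. No version of RMA is given there, and depth does not apply: the number of arrays, 1 per group, limits the precision.

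Probesets were named from the platform annotation, with 34958 of 45101 naming a single gene, 932 several and the rest none, and only the first were used. The probeset with the highest mean over 11 arrays stood for its gene. Genes with a mean of at least 3.83 were tested. Changes over time have no test. Genotypes were compared with limma on the 9 stimulated arrays (4 residual degrees of freedom) and by slopes on log2 time, with Benjamini-Hochberg adjustment over 10858 genes and a threshold of 0.05; these fits were tested on simulated data. Members, lists and tests were chosen with earlier results of these data known. Genes were named mainly from those with the 10 lowest and 5 highest mean changes at 2 h. Further sets were the 5 highest and lowest at 8 h against 2 h and the 10 largest called differences in each direction. The last sets were the 5 brightest and the listed known roles. Not all genes of these sets are named. Promoters came from RefSeq (GRCm38.p6). Protein sequences were not analysed here. The alternatives tried were other probeset choices, floors, scalings, fold limits and arrays in the fit.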

Additional observations from a re-analysis of the deposited data

Results flagged for a closer look

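Zfp957 moved in opposite directions between 2 h and 8 h in the knockouts, by -0.60 in the IRAK2 knockout and by 0.73 in the double knockout; the difference was not tested. It read 3.95, 3.89 and 3.35 at 2, 4 and 8 h in the former and 3.68, 3.67 and 4.40 in the latter, close to the limit of 3.83.

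On the double-knockout 0 h array, which is left out of the main comparisons, 49 members (19.4%, against 8.68% of all genes) read at least 2-fold above both other 0 h arrays, and 54 (21.3%, against 40.3% of all genes) at least 2-fold below both. Zfp52 read 10.58 there and 5.66 and 6.19 on the others.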

How the results depend on the processing

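No paired analysis was possible because each group has 1 array and no replicate numbers. Over all alternatives, 61 of 75 medians, 114 of 162 counts past 2-fold and 103 of 126 counts of calls kept their direction and stayed close to the main value. With the mean of all probesets of a gene, the counts of 2-fold lower members were 12 (wild type, 2 h), 5 (wild type, 4 h), 8 (IRAK2 knockout, 2 h) and 1 (wild type, 8 h against 2 h). The counts of higher members were 0 (IRAK2 knockout, 8 h) and, at 8 h against 2 h, 4, 1 and 6 in wild type, IRAK2 knockout and double knockout, and Zfp991 turned to 0.12 against wild type and 0.11 against the IRAK2 knockout. Without probesets marked as shared, 1 member was lower at 8 h against 2 h in wild type and 4 in the double knockout, and with the limit set on 12 arrays 1 in wild type. With the limit at the 75th percentile, lower and higher counts were 7 lower (wild type, 2 h), 3 and 2 (4 h), 1 and 2 (8 h), and for the IRAK2 knockout 8 lower, 3 and 3, and 0 and 1. The medians there were -0.16 (wild type, 8 h), -0.11 and -0.13 (IRAK2 knockout, 4 and 8 h) and 0.037 (wild type, 8 h against 2 h, with 3 higher). The double knockout had 1 lower and 6 higher at 8 h against 2 h, 10 lower and 47 higher calls against wild type and 8 lower against the IRAK2 knockout.

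With arrays centred on the gene median, the wild-type median was -0.00762 at 2 h (11 lower) and -0.051 at 4 h (5 lower), and that of the IRAK2 knockout -0.071 at 2 h and 0.0031 at 4 h. At 8 h against 2 h it was -0.067 (4 lower, 4 higher) in wild type, 0.043 in the IRAK2 knockout and 0.045 (4 lower, 7 higher) in the double knockout. The 1.5-fold limit gave, as lower and higher, 59 and 15, 30 and 14, and 19 and 12 in wild type at 2, 4 and 8 h, 49 and 13, 14 and 11, and 8 and 10 in the IRAK2 knockout, and 10 and 32, 7 and 34, and 13 and 37 at 8 h against 2 h. Set against the 0 h array of the same genotype, double-knockout medians were 0.18, 0.38 and 0.34, and against the mean of the other 0 h arrays -0.09, 0.13 and 0.10.

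Leaving out the arrays of 1 time gave 0 to 0 higher calls for the IRAK2 knockout against wild type. For the double knockout it gave 10 to 21 lower and 32 to 73 higher against wild type, and 8 to 18 lower and 18 to 63 higher against the IRAK2 knockout, with the lowest counts without 4 h. With 11 arrays in the fit the IRAK2 knockout had 1 lower and 4 higher calls. With 12 it had 0 higher, and the double knockout 7 lower and 16 higher against wild type and 7 and 7 against the IRAK2 knockout. With only the genotypes compared, the IRAK2 knockout had 4 lower and 11 higher calls, and each slope fit 1 lower, Zfp811. The cause of these shifts was not tested.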
